A study of Homo sapiens with 6 samples.

Results

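Places where MYC lay at several neighbouring sites were collected from a map of MYC binding in MIAPaCa2, a human cell line of pancreatic ductal adenocarcinoma. Of the 9901 intervals at which both libraries of cells in fibroblast medium had a MYC peak, neighbours were joined wherever the gap between them was at most 12500 bp, and joined groups of at least 4 intervals were kept. This left 131 groups holding 610 intervals, here called clustered intervals; the remaining 9291 are called the other intervals. The positions of these intervals chose the members, so their number, spacing, width and score are given as description with no test.

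After 48 hours of serum starvation, the cells received conditioned medium (CM) of cancer-associated fibroblasts for 3 hours (2 MYC immunoprecipitated libraries) or fresh serum-free DMEM for the same time (2 libraries); the labels name no engineered allele. Separate cultures are not mentioned in the labels, and the spread between libraries may be technical. The 2 input samples were not analysed here, and the peak lists carry no read counts, so depth is unknown. The lists hold 15304 and 12797 peaks in the CM libraries and 4657 and 7652 peaks in the DMEM libraries.

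MYC is a basic helix-loop-helix transcription factor that binds DNA as a dimer with MAX, with highest affinity for the E-box CACGTG. It is found at the promoters of many transcribed genes and, where it is abundant, also at enhancers, which may lie in runs of neighbouring sites along the chromosome. Joining sites over the distance used here is a common way to find such runs. In serum-starved cells MYC is generally low, and growth signals raise it within hours.

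The sequences below belong to promoters under clustered intervals, as RefSeq windows of 300 bases on GRCh38.p14, from 250 bases before to 50 after a transcript start; CACGTG, which is its own reverse complement, stands in capitals. The first set comes from the groups with the most intervals. These are ENEMAL, a noncoding RNA gene beside MALAT1 (chr11:65477438-65477737, minus strand), CIRBP, a cold-inducible RNA-binding protein (chr19:1269082-1269381, plus strand), and ERF, an ETS-family repressor (chr19:42254586-42254885, minus strand). The ENEMAL window holds the motif once, 86 bases before the start, and the CIRBP and ERF windows do not hold it. Windows of the noncoding RNA genes LOC105370664 and LOC105372988, picked likewise from other large groups, are not printed and also lack it.
ENEMAL promoter: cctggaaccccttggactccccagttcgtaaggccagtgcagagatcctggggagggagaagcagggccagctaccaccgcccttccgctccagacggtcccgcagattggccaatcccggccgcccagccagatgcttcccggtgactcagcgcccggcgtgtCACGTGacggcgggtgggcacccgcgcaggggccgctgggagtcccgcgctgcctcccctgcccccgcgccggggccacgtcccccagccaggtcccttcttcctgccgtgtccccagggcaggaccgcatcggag
CIRBP promoter: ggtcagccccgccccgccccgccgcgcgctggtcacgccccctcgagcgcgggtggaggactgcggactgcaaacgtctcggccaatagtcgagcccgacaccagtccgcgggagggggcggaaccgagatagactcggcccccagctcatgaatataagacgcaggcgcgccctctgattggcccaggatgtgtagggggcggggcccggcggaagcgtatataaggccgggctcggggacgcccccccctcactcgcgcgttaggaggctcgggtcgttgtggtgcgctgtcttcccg
ERF promoter: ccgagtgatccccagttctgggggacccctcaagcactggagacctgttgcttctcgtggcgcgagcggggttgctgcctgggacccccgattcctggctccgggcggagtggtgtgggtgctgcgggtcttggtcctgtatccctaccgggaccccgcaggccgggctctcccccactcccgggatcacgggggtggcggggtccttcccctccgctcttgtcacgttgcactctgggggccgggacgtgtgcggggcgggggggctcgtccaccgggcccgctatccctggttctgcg

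The second set was chosen after its values were seen, because 3 neighbouring genes of 1 group all hold the motif. DPH2, an enzyme of diphthamide synthesis (chr1:43969760-43970059, plus strand), has it once, starting 18 bases before the start. ATP6V0B, a subunit of the proton pump of lysosomes (chr1:43974710-43975009, plus strand), has it 2 times, the first 57 bases before the start. B4GALT2, a galactosyltransferase (chr1:43979687-43979986, plus strand), also has it 2 times, the first 63 bases before the start.
DPH2 promoter: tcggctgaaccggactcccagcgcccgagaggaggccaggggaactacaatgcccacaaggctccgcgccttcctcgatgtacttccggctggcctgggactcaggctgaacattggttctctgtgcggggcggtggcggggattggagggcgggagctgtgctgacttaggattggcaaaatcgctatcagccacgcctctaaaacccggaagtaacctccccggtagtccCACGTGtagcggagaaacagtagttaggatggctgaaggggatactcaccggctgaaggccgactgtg
ATP6V0B promoter: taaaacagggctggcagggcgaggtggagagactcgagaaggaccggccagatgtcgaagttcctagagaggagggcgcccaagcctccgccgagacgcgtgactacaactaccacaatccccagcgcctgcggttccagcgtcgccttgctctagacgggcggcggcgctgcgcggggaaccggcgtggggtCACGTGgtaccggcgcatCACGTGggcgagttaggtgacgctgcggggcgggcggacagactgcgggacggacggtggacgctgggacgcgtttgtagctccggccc
B4GALT2 promoter: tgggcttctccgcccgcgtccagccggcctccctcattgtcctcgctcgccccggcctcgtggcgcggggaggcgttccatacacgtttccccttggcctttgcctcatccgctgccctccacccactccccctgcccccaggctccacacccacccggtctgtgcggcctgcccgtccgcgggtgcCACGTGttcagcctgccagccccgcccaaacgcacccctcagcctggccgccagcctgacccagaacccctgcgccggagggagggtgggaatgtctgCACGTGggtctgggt

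MicroRNA genes lie in several groups, and the mature forms below are shown with the seed (bases 2 to 8) in capitals. miR-21-5p lies in a group at VMP1 that has no DMEM peak (chr17:59841273-59841294, plus strand). miR-132-3p (chr17:2049929-2049950, minus strand) and miR-212-3p (chr17:2050290-2050310, minus strand) lie under the same clustered interval and carry the same seed.
miR-21-5p: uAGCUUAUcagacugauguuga
miR-132-3p: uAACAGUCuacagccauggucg
miR-212-3p: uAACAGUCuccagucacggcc

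Most groups were small. Of the 131 groups, 85 held 4 intervals, 27 held 5, 8 held 6, 6 held 7, 2 held 8, 2 held 9 and 1 held 11. Their spans ran from 4189 to 46335 bp with a median of 20819 bp, and intervals covered a median of 30.5% of the span. Neighbouring intervals lay a median of 2705 bp apart, and the lower quartile of the gaps was 467 bp. The largest gap joined was 12424 bp, and the smallest gap that parted a group from its neighbour was 12738 bp. Where neighbours within 1000 bp were counted as 1 interval, 54 groups with 249 such intervals were left, so many groups rest on intervals that lie close together. Read within 1 library at a time, the same joining gave 569 groups in CM library 1 and 330 in CM library 2.

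Clustered intervals were about as wide as the other intervals and had lower scores. Their median width was 1194 bp, against 1208 bp for the other intervals. Scores are values that the authors' peak lists give, averaged over the peaks of an interval, and the median was 91.3 in clustered intervals and 110 in the other intervals. Summed over a group it ran from 231 to 1558 with a median of 487. The scores inside 1 group differed widely, with a median of 178 for the highest interval of each group and 55 for the lowest.

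Clustered intervals lay at ends of protein-coding genes less often than the other intervals. An interval was called at a gene end when it lay within 1000 bp of either outermost annotated end of a protein-coding gene, which holds for 70.8% of all 9901 intervals. It was true of 284 of 610 clustered intervals (46.6%) and of 6721 of 9291 other intervals (72.3%), a difference of -25.8 percentage points. A further 23.3% of clustered intervals lay inside a protein-coding gene away from its ends, against 15.0% of the other intervals (15.5% of all). Outside protein-coding genes lay 30.2% of clustered intervals and 12.7% of the other intervals (13.8% of all). The lower share at gene ends was found in each quartile of score, with 32.6%, 46.0%, 50.7% and 68.1% of clustered intervals from the lowest to the highest quartile, against 61.6%, 69.8%, 75.4% and 82.3% of the other intervals. No test was run, because intervals of 1 locus are not replicates. By RefSeq promoter windows, which follow transcript starts, 35.4% of clustered intervals and 62.6% of the other intervals overlapped one (60.9% of all).

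Noncoding RNA gene ends were also less frequent at clustered intervals. An end of a noncoding RNA gene lay at 21.8% of clustered intervals and at 25.4% of the other intervals (25.2% of all). At a noncoding RNA gene end but away from coding gene ends lay 57 clustered intervals (9.34% of 610), against 6.62% of the 9291 other intervals (6.79% of all). Among the intervals away from coding gene ends alone, the share was 57 of 326 clustered intervals (17.5%) and 615 of 2570 other intervals (23.9%). At least 3 peaks of the CM libraries were joined in 22.5% of clustered intervals and in 17.7% of the other intervals (18.0% of all).

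The share at gene ends differed with the size of the group. It was 76.6% for intervals on their own, 66.3% in groups of 2, 52.1% in groups of 3 and 54.1% in groups of 4, which stand just outside and just inside the rule. In groups of 5, 6, 7, 8 and 9 it was 45.9%, 33.3%, 26.2%, 37.5% and 27.8%. None of the 11 intervals of the largest group lay at a protein-coding gene end. Between 0 and 7 protein-coding genes overlapped the span of a group, with a median of 2. By group, 30 groups had no interval at a gene end, 79 had some and 22 had all of theirs there.

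**Figure D1:**
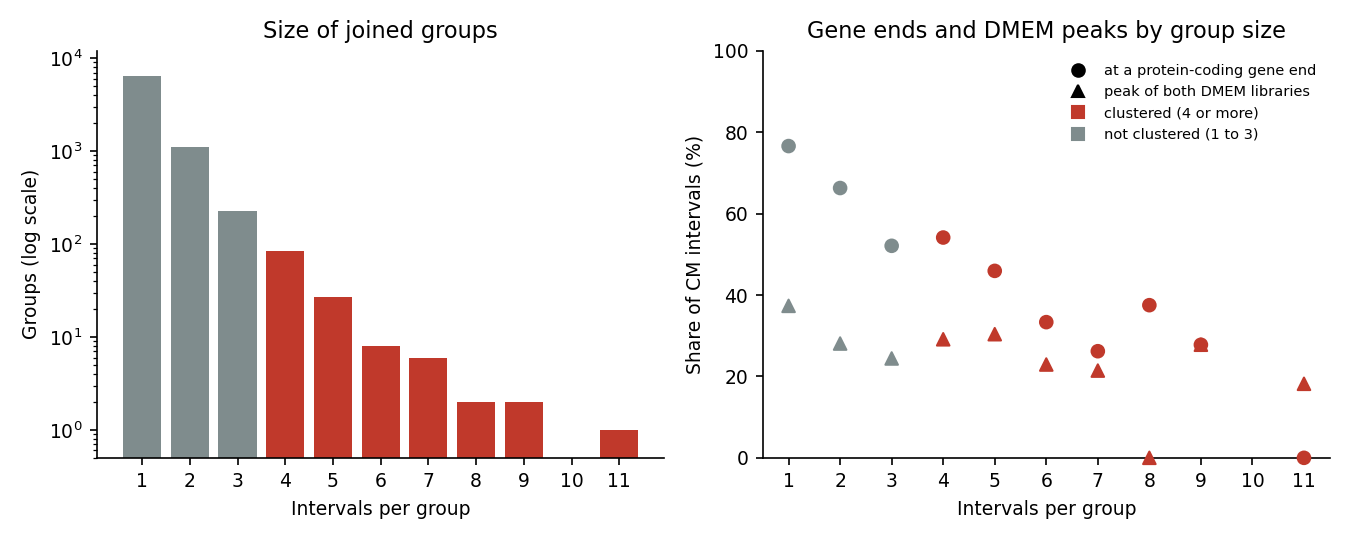
Left, the number of joined groups by intervals per group, on a log scale. Right, the percent of CM intervals at a protein-coding gene end (circles) and overlapping a peak of both DMEM libraries (triangles) by group size. Groups of 4 or more are red, smaller ones grey. The circles are highest for intervals on their own (76.6%) and lie between 0 and 54.1% in the clustered groups, and the triangles lie between 0 and 37.3%. Groups of 8, 9 and 11 are 2, 2 and 1 in number.

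Fewer clustered intervals than other intervals had a peak in DMEM. An overlap of at least 1 bp counted. In DMEM library 1, 187 of 610 clustered intervals had a peak (30.7%) and 36.4% of the other intervals did, with 36.0% over all CM intervals. In DMEM library 2 these values were 322 of 610 clustered intervals (52.8%) and 62.5% of the other intervals, with 61.9% over all. Peaks of both DMEM libraries lay at 167 clustered intervals (27.4%) and at 34.2% of the other intervals (33.8% of all), a difference of -6.80 points. A peak of either library lay at 56.1% of clustered intervals and at 64.7% of the other intervals (64.2% of all). Neither library had a peak at 268 clustered intervals (43.9%), against 35.3% of the other intervals (35.8% of all). The difference had the same sign in both DMEM libraries, at -5.71 and -9.73 points.

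Score moved with this difference. Within the quartiles of score, cut at 69.5, 108.5 and 186, clustered intervals overlapped both DMEM libraries in 1.69%, 11.1%, 41.4% and 89.4% of cases from the lowest to the highest quartile. The other intervals did so in 2.24%, 10.3%, 36.7% and 85.8%. Of the clustered intervals 178, 198, 140 and 94 fell into the 4 quartiles. When the other intervals were weighted to that same spread of scores, an alternative chosen after seeing the data, their share was 25.6%, so that the difference turned to 1.76 points higher in the clustered intervals. The DMEM libraries went different ways within the quartiles. From the lowest to the highest quartile, the clustered minus other difference was 1.31, 2.45, 3.33 and 4.21 points in DMEM library 1 and -7.40, -2.44, 1.21 and -0.78 points in DMEM library 2. For a peak of either library it was -5.53, -0.84, -0.23 and -0.18 points. Away from gene ends, 21.8% of clustered intervals and 23.9% of the other intervals overlapped both DMEM libraries.

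**Figure D2:**
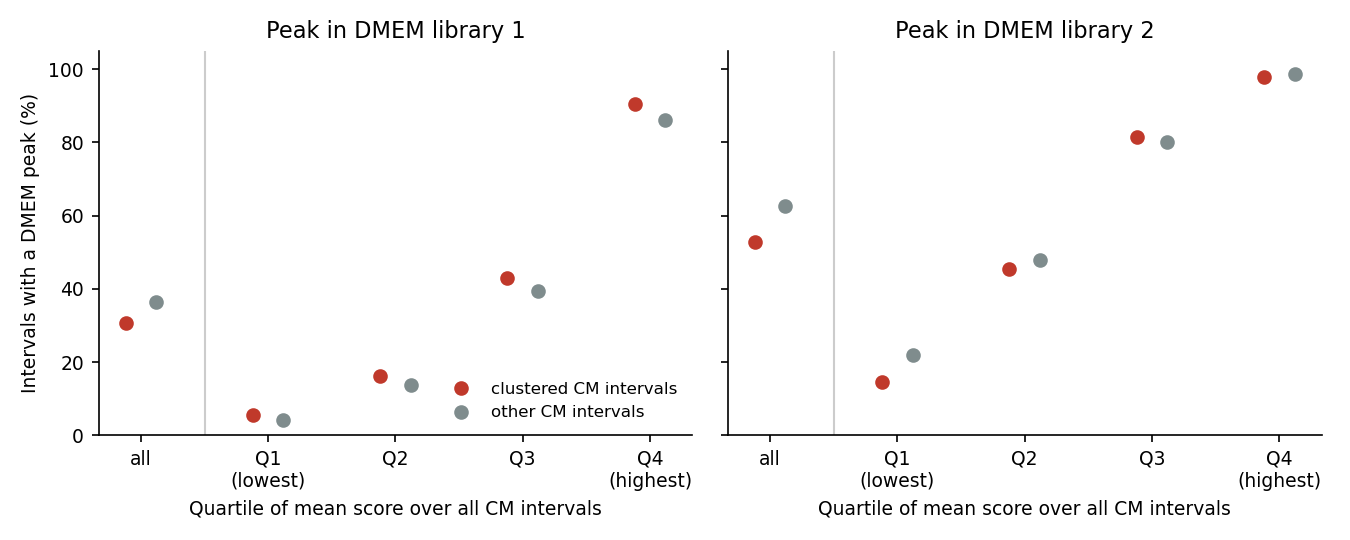
Percent of CM intervals that overlap a peak of DMEM library 1 (left panel) and DMEM library 2 (right panel), for all intervals and within quartiles of mean CM score. Red points are clustered intervals and grey points the other intervals. Over all intervals the red point is the lower one in both panels. Within quartiles the red point is the higher one in each quartile in library 1, and it is the lower one in library 2 in each quartile but the third (Q3).

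Within a group, the highest-scoring interval had DMEM peaks more often than the lowest-scoring one. That interval had a peak of both DMEM libraries in 84 of 131 groups (64.1%) and of neither in 15. The lowest-scoring interval had peaks of both in 9 groups (6.87%) and of neither in 98. In 43 groups exactly 1 interval overlapped both libraries, and in 33 of these it was the highest-scoring of its group. In 17 of the 43 groups it lay at a protein-coding gene end, against 46.6% of all clustered intervals. Overlap with both libraries rose with score outside the groups too, from 2.24% of the other intervals in the lowest quartile to 85.8% in the highest. The highest and lowest intervals compared here had median scores of 178 and 55, and other intervals of like score were not set beside them.

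Most groups shared some, but not all, of their intervals with DMEM. No interval overlapped peaks of both DMEM libraries in 36 groups, some did in 93 and all did in 2. Counting a peak of either DMEM library, 5 groups had none, 114 had some and 12 had all. The 2 DMEM libraries differed here, with no peak in 32 groups for library 1 and in 5 for library 2, and a peak at every interval in 2 and 10 groups. Among single clustered intervals, 27.4% had peaks of both libraries and 56.1% of either, against 33.8% and 64.2% of all CM intervals. Whether the group counts differ from what such shares and the group sizes alone would give was not tested. The share with peaks of both was 20.5% in groups with no interval at a gene end, 27.1% where some were and 40.0% where all were, and the median scores of these intervals were 84.5, 91.5 and 117.

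The largest group lay over noncoding RNA genes. It held 11 intervals in 28826 bp (chr11:65470401-65499226) around ENEMAL, LINC02736 and MALAT1, the last an abundant nuclear noncoding RNA, and no protein-coding gene overlapped it. Its summed score was 1032. DMEM library 1 had peaks at 3 of the intervals and DMEM library 2 at 4, with 2 in common. The interval at ENEMAL, whose promoter is printed above, ranked at percentile 82.1 and 69.6 of the peaks of the CM libraries and at 16.2 and 62.0 of those of the DMEM libraries. A percentile here ranks the highest peak under an interval by score among all peaks of the same library, with the strongest peak at 100. The interval over the start of MALAT1 had a score of 80.8 and a peak in DMEM library 1 but not in library 2.

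Other large groups lay along the body of 1 gene or beside a gene rather than at its outermost ends. Transcript starts inside a gene do not count as ends here. The 9 intervals of a group of 41579 bp (chr14:100406334-100447912) all lay inside WDR25, a WD-repeat gene, and 3 of them had peaks in both DMEM libraries. TPRG1, a p63-regulated gene, held 7 intervals (chr3:189268103-189305154), of which 2 had peaks of both. On the same chromosome 7 intervals (chr3:189908451-189947792) lay between P3H2, a collagen prolyl hydroxylase, and TP63, a p53-family transcription factor, at distances of 8935 and 11174 bp; 1 had peaks of both. None of the intervals of these 3 groups lay at a protein-coding gene end.

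A group of 41633 bp, among the widest, held 7 intervals (chr1:8113506-8155138), all outside protein-coding genes and 87196 bp from ERRFI1, an inhibitor of EGF receptor signalling. DMEM library 1 had a peak at 1 of them and DMEM library 2 at 2, with 1 in common.

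A group of 8 intervals (chr22:30195357-30235620) spread from HORMAD2, a meiotic gene, towards LIF, a secreted cytokine of the interleukin-6 family, which lay 4832 bp away. DMEM library 1 had no peak in it and DMEM library 2 had 2. The widest CM interval of the group, at the end of HORMAD2, ranked at percentile 89.1 and 84.5 in the CM libraries and at 64.5 in DMEM library 2. The next group on the chromosome (chr22:30249225-30263449) held 4 intervals and reached OSM, a related cytokine. Of its 4 intervals 1 had a peak in DMEM library 1 and 2 in library 2.

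Gene-dense loci gave other large groups. On chromosome 19, 9 intervals (chr19:1236957-1277260) lay at CBARP, ATP5F1D (a subunit of ATP synthase), MIDN, CIRBP and FAM174C, and 2 of them, the intervals at CIRBP and at CIRBP with FAM174C, had peaks in both DMEM libraries. Another 8 (chr19:42242258-42285096) lay at GSK3A, a glycogen synthase kinase, and at ERF and CIC, transcriptional repressors that ERK signalling controls. There DMEM library 1 had no peak and DMEM library 2 had 4. The widest group, 46335 bp with 6 intervals (chr1:153945437-153991771), ran from DENND4B over CRTC2, a co-activator of CREB, and CREB3L4 to RPS27, a ribosomal protein gene; DMEM library 1 had peaks at 3 intervals and DMEM library 2 at 5. Groups of 7 lay at SMG9 and KCNN4, a calcium-activated potassium channel (chr19:43753853-43784832), and at ENTPD6 and PYGB, a glycogen phosphorylase (chr20:25222483-25248930), with peaks of both DMEM libraries at 3 and 2 intervals.

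JUNB, a subunit of the AP-1 transcription factor and an early-response gene, lay in a group of 7 intervals with HOOK2, PRDX2 and RNASEH2A (chr19:12778315-12806853). Its strongest interval, over the end of JUNB, had a score of 262.5 and ranked at percentile 88.8 and 87.9 in the CM libraries. DMEM library 2 had a peak there at percentile 89.6, and DMEM library 1 had none. DMEM library 1 had peaks at 2 other intervals of the group, inside HOOK2 and at PRDX2. No interval of this group had peaks of both DMEM libraries.

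The 5 groups without any DMEM peak had low to middling scores. The one with the most intervals held 6 (chr17:59827983-59847144), 4 inside VMP1, a membrane protein of autophagy, and 2 beyond its end; the MIR21 hairpin lay in the gap between them, and no interval covered it. Their scores ran from 27 to 85.3, with percentiles from 1.0 to 60.7 in CM library 1 and from 13.1 to 53.5 in CM library 2. The others were 5 intervals at 65940 bp from ARHGAP5 (chr14:31990667-32011363), 4 inside WWTR1, the gene of the co-activator TAZ (chr3:149575032-149582682), 4 at ARRDC1 and EHMT1, a histone methyltransferase (chr9:137605678-137618960), and 4 at FBXL15 and CUEDC2 (chr10:102421048-102432758). In these 4 groups the highest scores were 145, 113, 135.5 and 85.5. None of the 23 intervals lay in the highest quartile of score.

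The interval over MIR132 and MIR212, in a group of 5 with HIC1, a transcriptional repressor, and DPH1 (chr17:2024840-2055547), had a score of 180. It ranked at percentile 81.9 and 83.3 in the CM libraries, had no peak in DMEM library 1 and ranked at 68.6 in DMEM library 2.

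The 2 groups with peaks of both DMEM libraries at every interval held 4 each. One covered FARSA, a subunit of phenylalanyl-tRNA synthetase, CALR, a chaperone of the endoplasmic reticulum, and GADD45GIP1, a mitochondrial ribosome protein (chr19:12932987-12957447), with all intervals at gene ends. Its intervals ranked at percentiles 69.7 to 92.1 in CM library 1, 70.5 to 91.1 in CM library 2, 25.8 to 70.5 in DMEM library 1 and 52.5 to 95.0 in DMEM library 2. The other covered GLI4, the noncoding RNA gene MINCR and ZNF696 (chr8:143266594-143292726). Its interval at ZNF696 had a score of 416.

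**Figure D3:**
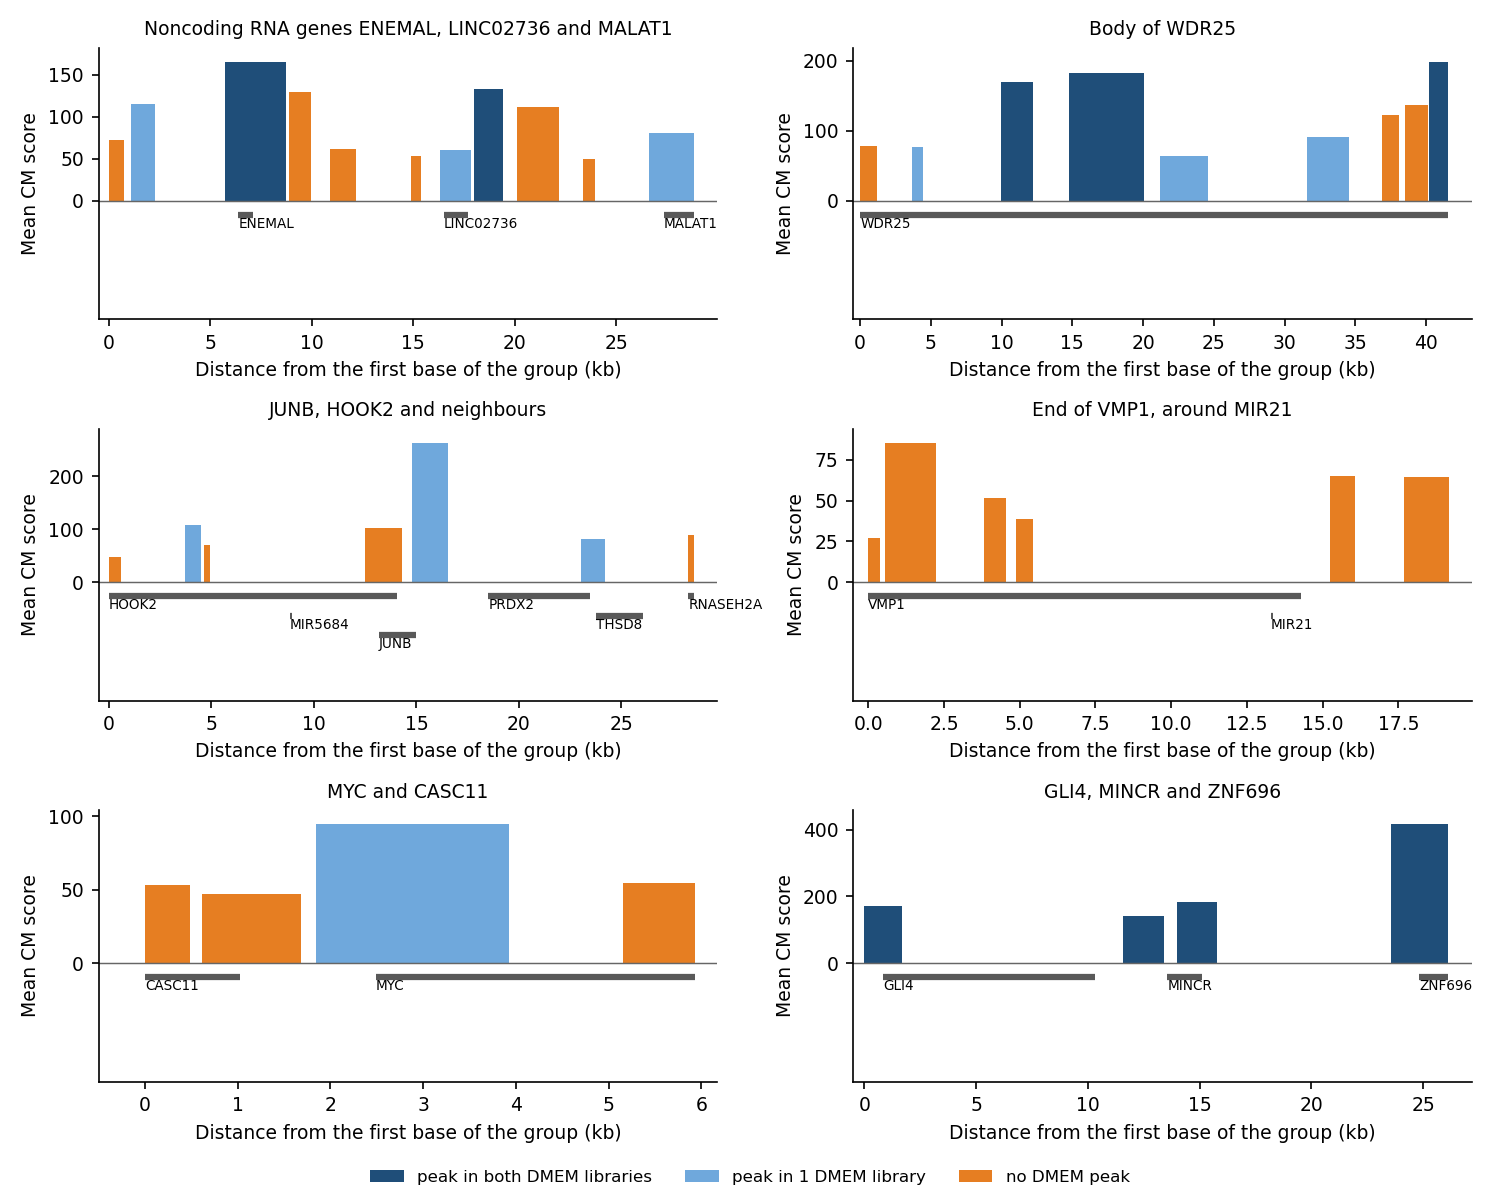
CM intervals of 6 groups, drawn to scale along the distance in kb from the first base of the group, with the mean CM score as height. Dark blue intervals had a peak in both DMEM libraries, light blue in 1 and orange in none. Grey lines are RefSeq genes clipped to the span of the group, without genes of uncharacterised loci and small RNA classes other than microRNAs. The VMP1 group is orange throughout, the group at GLI4, MINCR and ZNF696 dark blue throughout, and in the MYC group 1 of 4 intervals is light blue.

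MYC itself lay in a group of 4 intervals in 5938 bp (chr8:127732947-127738884), 1 inside the neighbouring noncoding RNA gene CASC11, 1 over the end of CASC11 that faces MYC, 1 over the start of MYC and 1 inside it. The interval over the start had a score of 94.7 and ranked at percentile 65.2 in CM library 1 and 50.4 in CM library 2. DMEM library 2 had a peak there at percentile 4.5, among its weakest, and DMEM library 1 had none. The other intervals, with scores of 53.5, 47.0 and 55.0, had no DMEM peak. A further group of 4 (chr8:127215273-127223252) lay at CCAT1, a noncoding RNA gene, with its end 512181 bp from MYC, and held 1 interval that had a peak in DMEM library 2 at percentile 32.5.

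The 6 groups with the highest summed scores all held ends of protein-coding genes. So did most of the 131 groups, of which 79 had some and 22 had all of their intervals at such an end. The sums were 1558 at ZNF48, ZNF771 and DCTPP1, a nucleotide pyrophosphatase (chr16:30394396-30430697), 1544 at RPL35, a ribosomal protein, and ARPC5L (chr9:124852914-124870794), and 1471 at ZNF580, CCDC106 and U2AF2, a splicing factor (chr19:55640720-55656816). Next came 1372 at GPT, RECQL4 and ARHGAP39 (chr8:144507815-144530153), 1321 at NR1D1, a repressor of the circadian clock, and MSL1 (chr17:40097995-40123169), and 1305 at CENPB, CDC25B and AP5S1 (chr20:3785365-3821171). The RPL35 interval alone had a score of 910 and ranked at percentile 99.5 and 99.1 in the CM libraries and at 98.8 and 95.8 in the DMEM libraries. The 2 weakest intervals of its group, at WDR38 and inside ARPC5L, had no DMEM peak. The highest score of any clustered interval, 1024, was at POLR2I and TBCB, a tubulin-folding cofactor (chr19:36113952-36116771), with percentiles of 99.7 and 99.5 in the CM libraries and 99.2 and 99.5 in the DMEM libraries.

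Of the 10 gene lists read against the groups, the early-response list had the most genes at clustered intervals. Over all 20037 protein-coding genes, 274 (1.37%) had an end at a clustered interval and 7808 (39.0%) at any CM interval. Of 40 early-response and AP-1 genes, 4 had an end at a clustered interval (IER2, JUNB, MYC and JUND) and 30 at any. Of 46 ribosome production genes, 43 lay at a CM interval but only RACK1, a ribosome-bound scaffold protein, at a clustered one. Of 34 secreted growth factors and cytokines, 12 were at any interval and 0 at a clustered one. LIF lay outside the window of 1000 bp, and the list does not hold OSM and FLT3LG, cytokine genes that each had an end at a clustered interval. Cell cycle genes were CDC25B and CKS1B of 30 (19 at any), cytoskeleton and adhesion genes ACTB and AHNAK of 40 (24 at any), and pancreatic tumour identity factors HMGA1 of 33 (11 at any). No marker of ductal, fibroblast, acinar and islet, or blood cells had an end at a clustered interval, of 7, 9, 7 and 7 genes, with 4, 1, 0 and 1 at any CM interval.

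At IER2, RACK1 and ACTB the strongest interval at the gene had peaks in both DMEM libraries and a weaker neighbour had none. The IER2 group (chr19:13150120-13168192) had 5 intervals; that over IER2 and STX10 had a score of 283 with percentiles of 93.6 and 92.5 in CM and 82.2 and 88.3 in DMEM, and the next, with a score of 62.7, had no DMEM peak. At RACK1 the main interval scored 409 with percentiles of 99.4 and 99.3 in CM and 95.5 and 96.6 in DMEM, and a neighbour towards TRIM52 with a score of 74.5 had none. At ACTB, the beta-actin gene, the interval over 1 end of the gene had a score of 180 and peaks in both DMEM libraries, and the 2 intervals over its body and at its other end had none. JUND went the other way: of its 2 intervals, 1 lacked any DMEM peak and the other had a peak in DMEM library 2 only, and the 2 intervals with peaks of both, with scores of 128 and 58.5, lay outside protein-coding genes. HMGA1, a chromatin protein, had 3 intervals at its ends, all with a peak in DMEM library 2 and 1 of them with a peak in library 1.

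The share of promoters with the E-box differed with the number of DMEM libraries that had a peak. CACGTG was present in 7.23% of all 34935 promoter windows and in 5.36% of those under no CM interval. It was present in 34 of 313 windows under clustered intervals (10.9%) and in 12.3% of those under the other intervals. Among windows under clustered intervals it was found in 27 of 130 (20.8%) where both DMEM libraries had a peak, in 6 of 110 (5.45%) where 1 had, and in 1 of 76 (1.32%) where neither had. Under the other intervals these shares were 16.2%, 10.4% and 7.88%. Score moved along with this: by score quartile the motif was in 0%, 6.19%, 12.1% and 22.1% of windows under clustered intervals, against 6.78%, 8.43%, 12.1% and 17.6% under the other intervals. Windows of 1 gene can overlap each other and a window can lie under more than 1 interval, so these are descriptions with no test. Median GC content was 67.7% under clustered intervals and 67.0% under the other intervals.

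**Figure D4:**
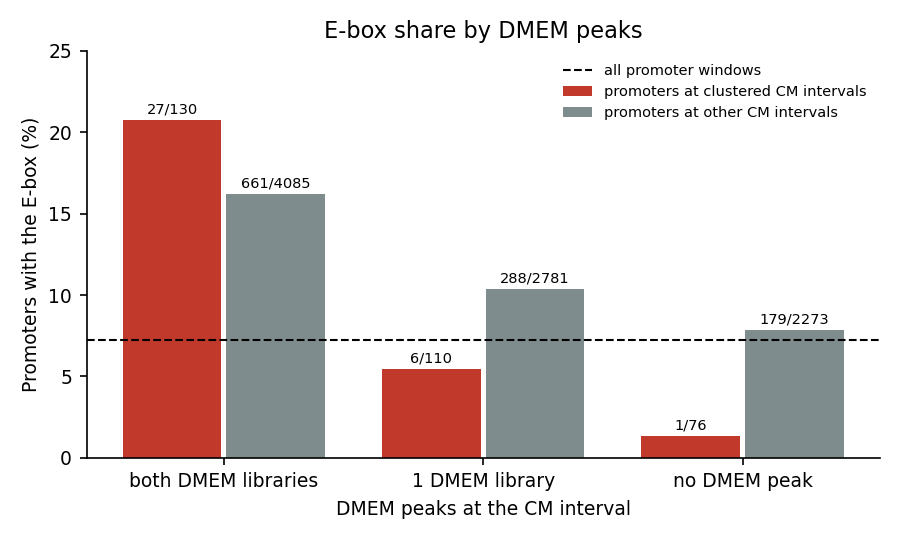
Percent of RefSeq promoter windows that hold the E-box, by how many DMEM libraries had a peak at the CM interval over the window. Red bars are windows under clustered intervals and grey bars those under the other intervals, with counts above the bars, and the dashed line is the share in all windows (7.23%). The red bars fall from 20.8% to 1.32% and the grey bars from 16.2% to 7.88%. Score is not held equal between the bars.

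The intervals over the printed promoters ranked as follows, and since DPH2, ATP6V0B and B4GALT2 were printed for their motif, they are examples only. At DPH2 the clustered interval ranked at percentile 89.5 and 88.6 in the CM libraries and at 48.5 and 85.2 in the DMEM libraries. At ATP6V0B the ranks were 60.7 and 76.2 in CM and 25.8 and 52.5 in DMEM, and at B4GALT2 they were 98.3 and 98.7 in CM and 91.4 and 94.0 in DMEM. The group of these 3 genes (chr1:43969413-43991959) had 5 intervals, of which the 3 over the printed promoters had peaks in both DMEM libraries. The CIRBP promoter, without the motif, ranked at 89.1 and 89.6 in the CM libraries and at 82.2 and 91.4 in the DMEM libraries. The ERF promoter, also without it, had a peak in DMEM library 2 at percentile 36.1 and none in library 1.

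To ask whether clustering as such differed between the media, the same joining was run on each library's own peaks. It gave 569 and 330 groups of at least 4 peaks in the CM libraries and 51 and 101 in the DMEM libraries, a ratio of geometric means of 6.04 (exact two-sided permutation test, p = 0.333, the smallest that 2 against 2 libraries allow). The number of groups depends on the length of the list. With each list limited to its 4657 highest-scoring peaks, there were 11 and 9 groups in the CM libraries and 51 and 15 in the DMEM libraries, and the ratio turned to 0.360 (exact permutation test, p = 0.333). The high count came from DMEM library 1, whose whole list this is. Of its 51 groups, 44 spanned fewer than 4 common CM intervals, with a median gap of 518 bp between its peaks, so most of its groups are several peaks in a stretch that fewer common CM intervals cover. In the whole lists, 418 of 569 and 194 of 330 groups of the CM libraries also spanned fewer than 4 common CM intervals. So did 63 of 101 groups of DMEM library 2. With lists of equal length, this held for only 2 of 11 and 3 of 9 groups of the CM libraries. It held for 11 of 15 groups of DMEM library 2.

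**Figure D5:**
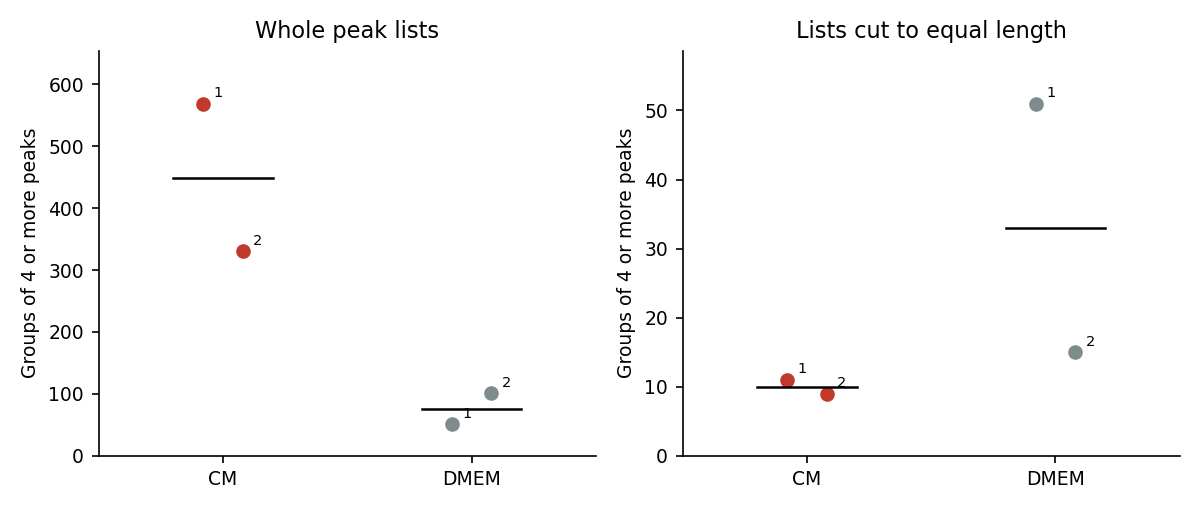
Groups of 4 or more peaks in each library's own list, with CM left and DMEM right, for whole lists (left panel) and for lists cut to the 4657 highest-scoring peaks (right panel). Points are libraries, numbered, and lines are means of 2. With whole lists both CM points lie above both DMEM points; with equal lengths both lie below, and DMEM library 1 stands apart at 51.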

How the data were processed

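MYC ChIP-seq peak lists of 4 libraries and the authors' common list for CM were used. MACS2 2.1.1.20160309 and Bowtie2 2.3.4, with Trim Galore 0.4.3, Picard 2.9.0 and SAMtools 1.3.1, are named beside GRCh38 per the submitters' processing notes. Their settings, and the control of each list, are not given here. The authors deposited a score per peak, at least 13 in each list, whose scale the files do not state; an interval of the common list carries the mean score of the peaks it joins, which was checked on all 9901 intervals to a tolerance of 0.01. Starts were read as counting from 0 and printed from 1.

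Intervals were joined, ranked and overlapped in Python 3.11.15 with NumPy 2.4.6 and SciPy 1.17.1, after the joining was tested on simulated intervals. Genes and promoters are those of RefSeq on GRCh38.p14; the gene table used here has no strand and one span per gene, so an end may be a start or a finish. Described groups are the 10 with the most intervals, the 6 highest in summed score, the 6 widest, those with no DMEM peak, those with all intervals in both DMEM libraries, and that at MYC; other groups were chosen after their values were seen. The members, lists and rules were chosen with earlier results of these data known. No genome sequence was used here, so motifs were read in promoter windows only. Some genes in the groups are not reported here.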

Additional observations from a re-analysis of the deposited data

How the results depend on the processing

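The number of groups depends on the rule. A gap of 5000 bp gave 44 groups with 192 intervals, a gap of 25000 bp 266 with 1412, a minimum of 3 intervals 355 with 1282, a minimum of 5 intervals 46 with 270, and neighbours within 1000 bp counted as 1, an alternative added after seeing the data, 54 with 249. From 1 CM library alone the counts were 330 to 569 groups and 1673 to 3170 intervals. The difference from the other intervals in the share with peaks of both DMEM libraries, -6.80 points, was -11.6 with a gap of 5000 bp, -2.69 with 25000 bp, -2.85 when an overlap had to cover at least 0.5 of the interval, -2.07 away from gene ends, and -11.2 to -5.71 when a library was left out; weighting by score, also added after seeing the data, reversed it to 1.76. At gene ends the difference of -25.8 points was -39.2 with a gap of 5000 bp, -18.4 with 25000 bp, -34.7 with at least 5 intervals, -20.7 with a window of 2500 bp, and -32.4 to -28.6 from 1 CM library alone. It kept its sign under every alternative run. Groups with none of their intervals in both DMEM libraries, 36, were 5 with either library, 17 with a gap of 5000 bp and 5 to 32 from 1 DMEM library. Groups with some, 93, were 27 with a gap of 5000 bp, 212 with 25000 bp and 97 to 116 from 1 DMEM library. Groups with all, 2, were 12 with either library, 0 with the authors' common DMEM list, 0 with a gap of 5000 bp and 2 to 10 from 1 DMEM library. The cause of these moves was not tested.

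The CM over DMEM ratio of groups in each library's own list was 6.04, reversed to 0.360 with lists of equal length, was 10.2 with a score of at least 50, 7.23 with a gap of 5000 bp and 4.65 with 25000 bp, and lay at 4.29 to 8.50 when a library was left out. With the replicate number as a block it was again 6.04 (exact permutation within numbers, p = 0.5, the smallest 2 pairs allow), from within-number ratios of 11.2 and 3.27. Nothing in the labels says that equal numbers pair the libraries. Depth is unknown for all lists, so a missing DMEM peak means none at the authors' threshold.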

Other observations

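Genes of transfer RNAs, which RNA polymerase III transcribes, lay at clustered intervals in a few groups. Of 429 annotated tRNA genes, 120 had an end at a CM interval, against 7808 of 20037 protein-coding genes, and 25 (5.83%) at a clustered one, against 1.37%. The 25 lie close together, in 5 of the 131 groups, and no test was run. A group of 4 intervals (chr11:59549708-59566622) lay at 8 tRNA genes beside the noncoding RNA gene LINC02739; all 4 intervals had a peak in DMEM library 2 and 2 had one in DMEM library 1. Its strongest interval ranked at percentile 91.6 and 91.9 in the CM libraries and at 90.2 and 92.1 in the DMEM libraries.

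Groups were unevenly spread over the chromosomes. Among all 9901 CM intervals, 610 were clustered. Chromosome 19 held 21 of the 131 groups, and 14.8% of its 688 CM intervals were clustered, followed by 11.1% on chromosome 14 and 10.3% on chromosome 20. Chromosomes 4, 15, 18 and 21 held none, of 246, 249, 164 and 104 CM intervals. Protein-coding genes numbered 1451, 605 and 537 on chromosomes 19, 14 and 20, and 770, 617, 270 and 239 on chromosomes 4, 15, 18 and 21. Whether the spread goes beyond that of genes and CM intervals was not tested. In 8 stretches, 18 groups with 92 intervals followed each other within 100000 bp. The longest (chr1:8076817-8218253) held 17 clustered intervals in 3 groups over 141437 bp between ERRFI1 and SLC45A1; none was at a protein-coding gene end, 4 had peaks in both DMEM libraries and 7 in either.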
